A study of Homo sapiens with 6 samples.

Results

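The matrix metalloproteinases (MMPs) MMP1, MMP9, MMP10, MMP13, MMP14, MMP15 and MMP28 and the tissue inhibitors of metalloproteinases TIMP1, TIMP2 and TIMP3 were followed in HaCat cells after ultraviolet B (UVB) light. The members were taken by symbol, and all 10 were found among the 58735 genes of the deposited table. HaCat is an immortalised human keratinocyte line, and the labels name it for all 6 libraries. The UVB group is 3 libraries with a dose labelled 50 mJ, for which no area is given, and the control group is 3 libraries labelled only as control. Cells were grown in 60 mm dishes and, per the labels' protocols, irradiated cells were kept for a further 24 h before RNA was taken. Nothing in the labels tells whether dishes of 1 group were separate cultures. A p-value here thus measures only how much these samples vary, which may be a technical spread. A transformed line grown alone also lacks the fibroblasts and infiltrating cells of skin.

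MMPs are zinc proteases that are secreted or held at the cell surface and together can cut most components of the extracellular matrix. They are made as inactive proenzymes, are switched on by removal of the propeptide, and are blocked by TIMPs, which bind the active site. In skin they are known for the breakdown of dermal collagen after ultraviolet exposure and for the movement of keratinocytes over a wound.

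Promoter sequence is shown for the members that the RefSeq promoter table holds, since members of both directions are among them. The table matched 5 of the 10 members, MMP10, MMP14, MMP15, TIMP1 and TIMP3. Sequences are from RefSeq on GRCh38.p14, each read 5′ to 3′ on the gene's strand and ending at its start or at the first base that another annotated transcript covers. Capitals mark matches on either strand to the letters TATAAA for the TATA box, GGAAG for the ETS core and GGGCGG for the GC box. MMP10 is shown from chr11:102780629-102780878 on the minus strand, MMP14 from chr14:22836335-22836556 on the plus strand and MMP15 from chr16:58025504-58025565 on the plus strand. TIMP1 is shown from chrX:47582186-47582312 on the plus strand and TIMP3 from chr22:32801455-32801700 on the plus strand.
MMP10: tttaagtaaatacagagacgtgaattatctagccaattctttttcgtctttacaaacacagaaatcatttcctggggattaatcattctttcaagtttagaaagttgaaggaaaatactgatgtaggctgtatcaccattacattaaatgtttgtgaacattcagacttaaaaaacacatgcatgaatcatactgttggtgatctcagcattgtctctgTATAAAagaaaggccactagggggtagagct
MMP14: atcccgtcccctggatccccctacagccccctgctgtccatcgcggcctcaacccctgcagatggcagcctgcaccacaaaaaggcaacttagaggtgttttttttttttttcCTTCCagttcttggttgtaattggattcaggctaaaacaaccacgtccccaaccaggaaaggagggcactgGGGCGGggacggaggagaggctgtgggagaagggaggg
MMP15: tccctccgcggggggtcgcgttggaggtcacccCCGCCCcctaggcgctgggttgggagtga
TIMP1: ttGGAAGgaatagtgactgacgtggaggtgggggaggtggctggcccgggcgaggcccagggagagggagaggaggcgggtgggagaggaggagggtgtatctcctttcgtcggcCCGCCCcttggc
TIMP3: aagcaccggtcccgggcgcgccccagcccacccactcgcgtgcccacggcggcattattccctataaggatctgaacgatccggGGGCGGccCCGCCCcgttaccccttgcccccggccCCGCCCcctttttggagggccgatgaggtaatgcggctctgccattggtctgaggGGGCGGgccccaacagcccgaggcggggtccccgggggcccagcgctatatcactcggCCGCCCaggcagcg
Over the 250 bases before all 35116 promoters of the table, TATAAA stood in 10.7%, GGAAG in 65.1%, GGGCGG in 42.6% and the AP-1 letters TGAGTCA in 4.20%. MMP10 held TATAAA 31 bases before its start and none of the other letters. MMP14, MMP15, TIMP1 and TIMP3 each held GGGCGG, with 5 matches in MMP15 and 5 in TIMP3. MMP14, MMP15 and TIMP1 also held GGAAG. Some matches of MMP15 and TIMP1, with the GGAAG of MMP15 among them, lie between the end of the printed run and the start and are not shown. No TGAGTCA was found in these 5 windows, which says nothing of AP-1 binding elsewhere.

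The comparison asked which of these genes differed 24 h after UVB. MMP13, MMP15 and TIMP1 rose, and MMP14, MMP28 and TIMP3 fell. MMP1, MMP10 and TIMP2 did not pass the test, and MMP9 lay under the filter on low values (the average over all 6 libraries had to reach 0.5 FPKM). FPKM divides the reads of a gene by its length and by the assigned reads of the library. The length of each member is that of all its annotated exons merged, so levels of different genes compare only roughly. Of the 9 tested members 3 were higher and 3 lower by limma at an adjusted p under 0.05. Over all 14921 tested genes 27.9% passed, 17.0% higher and 11.0% lower. The same 6 members were those whose groups did not overlap, 3 above and 3 below controls, where 45.8% of tested genes had no overlap, 27.6% above and 18.2% below. With edgeR on recovered reads 13.3% of all genes were higher and 13.3% lower, and the same 6 members passed. The members' median log2 fold change by limma was -0.17, beside 0.04 over all tested genes. Fold changes are on the log2(FPKM + 1) scale, except those credited to edgeR, DESeq2 or the authors' deposited table. In bulk RNA, fewer cells of a type and less RNA per cell cannot be told apart.

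**Figure D1:**
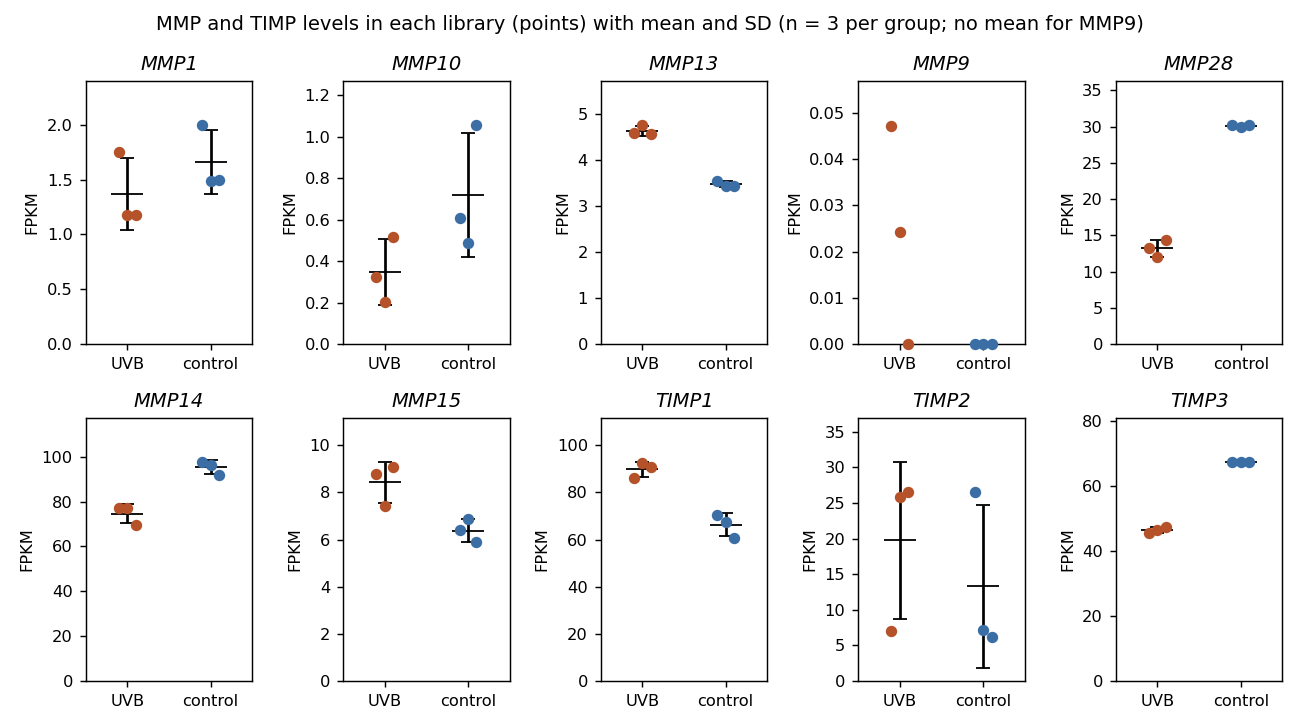
FPKM of each member (y axis, linear, from 0) in the 3 UVB libraries and the 3 control libraries (points), with the mean and SD as bars, which are left out for MMP9. The groups are apart for MMP13, MMP14, MMP15, MMP28, TIMP1 and TIMP3, while TIMP2 has high and low libraries in both groups.

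Among the collagenases, which cut fibrillar collagen, MMP13 rose and MMP1 did not pass. MMP13 (collagenase-3, ENSG00000137745, chr11:102942995-102955734) had 4.60, 4.77 and 4.56 FPKM in the UVB libraries, against 3.55, 3.44 and 3.44 FPKM in the control libraries. All UVB libraries lay above all control libraries. Its log2 fold change was 0.33 ± 0.053 (SE) with an adjusted p of 0.00595 (limma), on 646 to 1196 reads per library. MMP1 (interstitial collagenase, ENSG00000196611, chr11:102789920-102798160), the collagenase best known from irradiated skin, had 1.75, 1.18 and 1.18 FPKM after UVB, against 2.00, 1.49 and 1.49 FPKM in controls. The groups overlapped, as the first UVB library stood above the second and the third control library. Its log2 fold change was -0.17 with a 95% interval of -0.48 to 0.14 (limma adjusted p = 0.377), and edgeR on recovered reads gave -0.33. The MMP1 value was -0.28 without the first UVB library, -0.08 without the first control library and -0.11 to -0.22 without any other library, and adjusted p lay between 0.150 and 0.701 over all alternatives. Of the bases in MMP1 exons, 7.61% are shared with WTAPP1.

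MMP10 (stromelysin-2, ENSG00000166670, chr11:102770503-102780628), which cuts non-fibrillar matrix proteins and can activate other pro-MMPs, was near the filter. It had 0.322, 0.206 and 0.516 FPKM after UVB, against 0.607, 0.489 and 1.06 FPKM in controls. The groups overlapped narrowly, at the third UVB library and the second control library. The log2 fold change was -0.34 with a 95% interval of -0.71 to 0.03 (limma adjusted p = 0.150). At 32 to 151 reads per library the pseudocount of 1 shrinks such a value, and edgeR on recovered reads gave -1.10 with an adjusted p of 0.110. Adjusted p was between 0.0658 and 0.330 over the 13 alternatives in which MMP10 could be tested.

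MMP9 (gelatinase B, ENSG00000100985, chr20:46008908-46016561), which degrades denatured collagen and basement membrane collagen, gave almost no reads. It had 8, 5 and 0 reads in the UVB libraries, or 0.0472, 0.0242 and 0 FPKM, against 0 reads in each control library. A count of 0 in the controls allows up to 0.0185, 0.0194 and 0.0158 FPKM, at 3 reads per library, which covers counting error only. The third UVB library was at 0 like the controls, so the groups overlapped. In addition 18.4% of the bases in MMP9 exons are shared with SLC12A5-AS1, and no strand setting is given in the sources used here.

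The membrane-anchored members moved in opposite directions. MMP14 (MT1-MMP, ENSG00000157227, chr14:22836557-22849027), the surface protease that activates pro-MMP2, had 76.95, 77.0 and 69.6 FPKM after UVB, against 97.8, 96.3 and 92.0 FPKM in controls. Every UVB library lay below every control library, and the log2 fold change was -0.35 ± 0.054 (SE) with an adjusted p of 0.00515 (limma). MMP15 (MT2-MMP, ENSG00000102996, chr16:58025566-58046901), a related surface protease, had 8.78, 7.44 and 9.08 FPKM after UVB, against 6.39, 6.87 and 5.89 FPKM in controls. The groups did not overlap, but the second UVB library and the second control library were close. The log2 fold change was 0.35 ± 0.089 (SE) with an adjusted p of 0.0294 (limma). That call did not hold in 7 of 15 alternatives, with adjusted p between 0.00989 and 0.0899. Adjusted p was 0.0896 without the first UVB library, 0.0899 without the third, 0.0743 without the first control library and 0.0815 without the third.

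MMP28 had the lowest fold change of the members. MMP28 (epilysin, ENSG00000271447, chr17:35756249-35795707) is a secreted MMP known from keratinocytes at wound edges. It had 13.2, 12.04 and 14.4 FPKM in UVB libraries, against 30.2, 30.01 and 30.2 FPKM in control libraries. The 3 control libraries were close together and far above all UVB libraries. The mean was 13.2 ± 1.19 FPKM after UVB and 30.1 ± 0.120 FPKM in controls (SD, n = 3 each). MMP28 fell with a log2 fold change of -1.13 ± 0.067 (SE), with a 95% interval of -1.30 to -0.97 and an adjusted p of 0.000194 (limma), the 107th lowest of the 14921 tested genes. MMP28 overlaps TAF15 on the other strand without a shared exon.

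**Figure D2:**
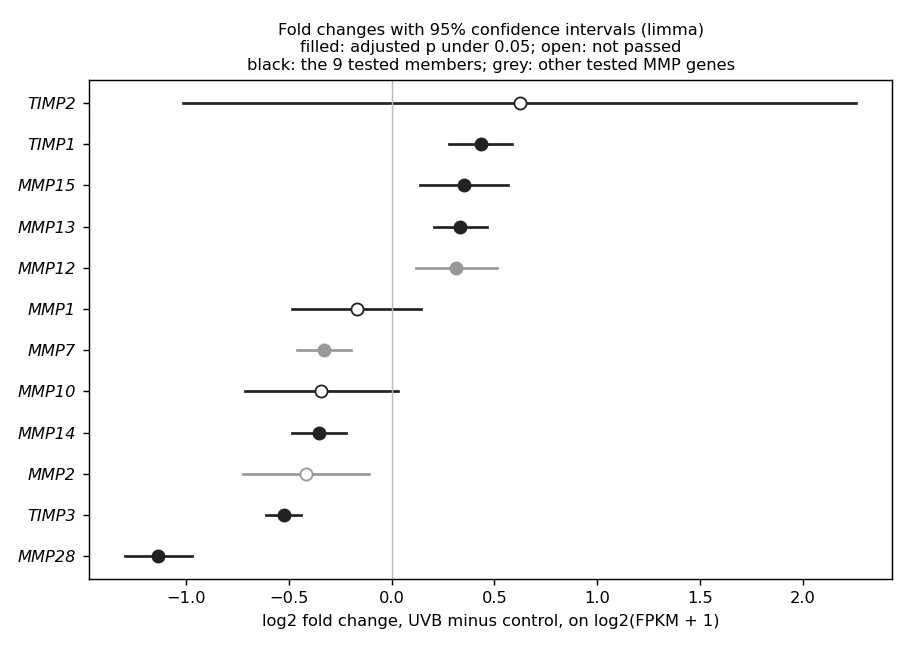
Log2 fold change, UVB minus control, on log2(FPKM + 1) (x axis) with 95% confidence intervals from limma, for the 9 tested members (black) and 3 other tested MMP genes (grey); filled points have an adjusted p under 0.05. MMP28 stands lowest at -1.13, and the interval of TIMP2 runs from -1.01 to 2.26.

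The inhibitors did not move together. TIMP1 (ENSG00000102265, chrX:47582313-47586789), a soluble inhibitor of most secreted MMPs, had 86.0, 92.4 and 90.8 FPKM after UVB, against 70.6, 67.5 and 60.9 FPKM in controls. All UVB libraries lay above all controls, and TIMP1 rose with a log2 fold change of 0.43 ± 0.064 (SE) and an adjusted p of 0.00461 (limma). TIMP3 (ENSG00000100234, chr22:32801701-32863043), which binds to the matrix and also inhibits ADAM proteases, had 45.7, 46.6 and 47.5 FPKM after UVB, against 67.6, 67.4 and 67.5 FPKM in controls. Libraries of a group were close together and the groups far apart, and TIMP3 fell with a log2 fold change of -0.52 ± 0.035 (SE) and an adjusted p of 0.000294 (limma). TIMP1 lies inside SYN1 and TIMP3 inside SYN3, without shared exons.

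TIMP2 varied within both groups. TIMP2 (ENSG00000035862, chr17:78852977-78925387) inhibits MMPs and, with MMP14, takes part in the activation of pro-MMP2. It had 6.97, 25.8 and 26.5 FPKM in the UVB libraries, against 26.5, 7.10 and 6.21 FPKM in the control libraries. The first UVB library, the second control library and the third control library were low, and the other libraries were high, with none in between. The highest value was 4.27 times the lowest, and reads ran from 2652 to 12843 per library. The residual SD of TIMP2 on the log2 scale was 1.05, the 68th largest of 14921 tested genes. Among the 3144 tested genes at or above its level, 14 had an SD as large, TIMP2 included. Its log2 fold change was 0.62 with a 95% interval of -1.01 to 2.26 (limma adjusted p = 0.539). It was 1.21 without the first UVB library and 1.24 without the first control library, while leaving out any other library gave 0.27 to 0.36, and adjusted p lay between 0.188 and 0.823 over all alternatives. Of the bases in TIMP2 exons, 10.03% are shared with CEP295NL and AC022966.1, of which CEP295NL had 0.0491 to 0.251 FPKM over the 6 libraries and AC022966.1 was at 0.

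In the authors' deposited table, 5 of the 10 members had an adjusted p under 0.05, against 8.6% of the 32902 genes with an adjusted p in it. These were MMP15 and TIMP1, higher, against 4.67% of all genes, and MMP14, MMP28 and TIMP3, lower, against 3.93%. Many of those 32902 genes lie under the filter used here, which 14921 genes passed. Their shares are thus not like the 27.9% given above. The authors' deposited table gave MMP28 a log2 fold change of -1.19 with an adjusted p of 2.74e-25. MMP13, at 0.41 in the authors' deposited table, had an adjusted p of 0.0969 there. MMP9 had a log2 fold change of 4.44 in the authors' deposited table with a p of 0.118, on the few reads given above.

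The order of the levels differed between the groups. After UVB it ran TIMP1, MMP14, TIMP3, TIMP2, MMP28, MMP15, MMP13, MMP1, MMP10 and MMP9 by mean FPKM. In controls it ran MMP14, TIMP3, TIMP1, MMP28, TIMP2, MMP15, MMP13, MMP1, MMP10 and MMP9. Neighbours overlapped after UVB only at TIMP2 and MMP28, and in controls at TIMP3 and TIMP1 and at TIMP2 and MMP15. The mean of TIMP1 was 89.8 ± 3.35 FPKM after UVB and 66.3 ± 4.97 FPKM in controls, and that of MMP14 74.5 ± 4.25 FPKM after UVB and 95.4 ± 3.02 FPKM in controls (SD, n = 3 each).

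Ratios within a library put the inhibitors side by side. TIMP1 over TIMP3 was 1.88, 1.98 and 1.91 in UVB libraries, against 1.04, 1.00 and 0.901 in control libraries. The groups did not overlap. The summed FPKM of the 7 MMPs was 102.6 ± 3.15 after UVB and 137.8 ± 3.36 in controls, without overlap, and MMP14 made up 72.6% ± 2.48 of it after UVB and 69.2% ± 0.519 in controls (SD, n = 3 each). The summed FPKM of the 3 TIMPs was 156 ± 15.1 after UVB and 147 ± 15.7 in controls, and the groups overlapped. The MMP sum over the TIMP sum was 0.762, 0.623 and 0.603 in UVB libraries, against 0.854, 0.976 and 0.996 in control libraries. All UVB libraries were lower on FPKM, with a mean log2 difference of -0.51, but on read numbers that were not divided by gene length the ratio was 0.933 ± 0.184 after UVB and 1.15 ± 0.134 in controls and the groups overlapped. Without TIMP2 the FPKM ratio was 0.753 ± 0.0440 after UVB and 1.03 ± 0.0135 in controls. MMP14 over TIMP2 was 11.0, 2.99 and 2.63 after UVB, against 3.69, 13.6 and 14.8 in controls, following the split of TIMP2. These ratios are of RNA levels and carry no test.

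**Figure D3:**
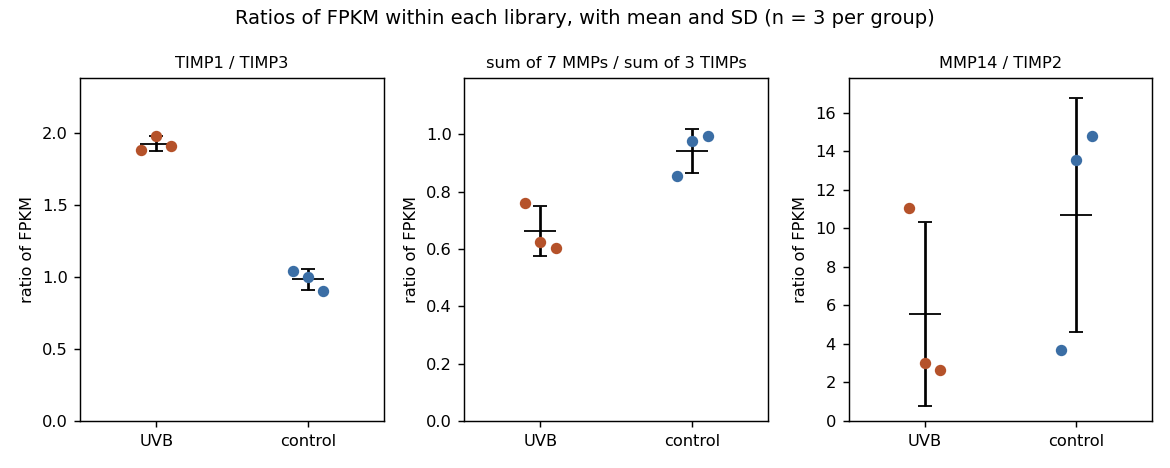
Ratios of FPKM within each library (y axes, linear, from 0) in UVB and control libraries (points), with the mean and SD (n = 3 per group). TIMP1 over TIMP3 is 1.88 to 1.98 after UVB and 0.901 to 1.04 in controls, while MMP14 over TIMP2 is spread widely in both groups.

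MMP1, MMP10 and MMP13 lie in a cluster of 9 MMP genes on chromosome 11, all on the minus strand. In map order these are MMP7, MMP20, MMP27, MMP8, MMP10, MMP1, MMP3, MMP12 and MMP13, and 5 of them were tested. The neighbours MMP12 (macrophage elastase) and MMP13 at the end of the cluster were higher after UVB, and MMP7 (matrilysin) at the other end was lower. MMP12 had 1.12, 0.887 and 1.04 FPKM after UVB, against 0.631, 0.644 and 0.578 FPKM in controls. The groups did not overlap, and the log2 fold change was 0.31 ± 0.081 (SE) with an adjusted p of 0.0321 (limma). This call was lost in 8 of 14 alternatives, among them leaving out the first or the third UVB library or any control library, with adjusted p between 0.0246 and 0.101, and edgeR gave a fold change of 0.66. MMP7 had 7.26, 7.60 and 7.27 FPKM after UVB, against 9.07, 9.50 and 10.002 FPKM in controls. All UVB libraries lay below all controls, and MMP7 fell with a log2 fold change of -0.33 ± 0.055 (SE) and an adjusted p of 0.00706 (limma). MMP8 and MMP27 had 0 reads in all libraries, MMP20 had 3 reads in the second UVB library alone and MMP3 had 5 reads in the first control library alone.

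**Figure D4:**
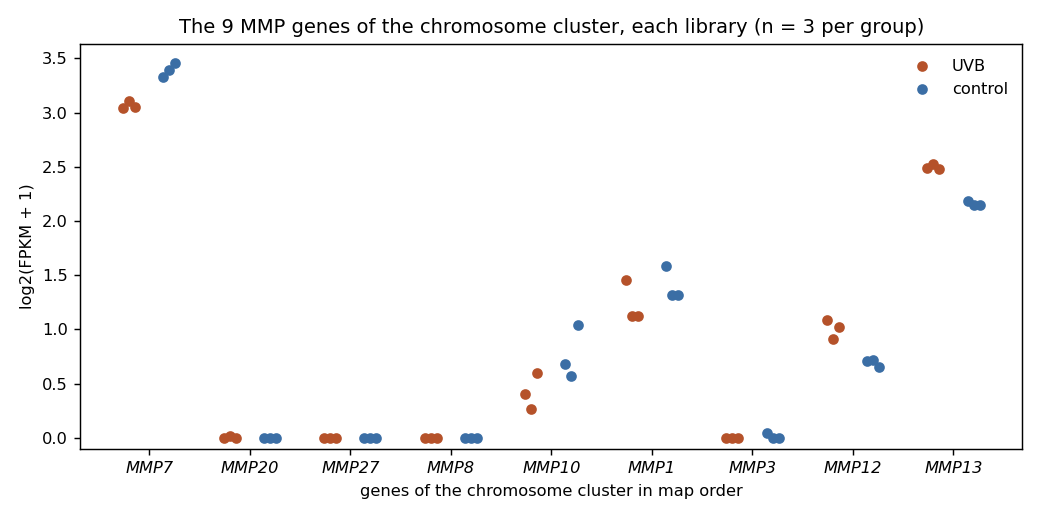
Levels on the log2(FPKM + 1) scale (y axis) of the 9 MMP genes of the chromosome 11 cluster in map order (x axis), with 1 point for each of the 3 UVB and 3 control libraries. MMP7 is lower and MMP12 and MMP13 are higher after UVB, and MMP20, MMP27, MMP8 and MMP3 lie at or near 0.

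Of 16 other MMP genes, 3 were tested, with 1 higher (MMP12) and 1 lower (MMP7). The third was MMP2 (gelatinase A), whose proenzyme MMP14 activates, with 1.86, 1.61 and 1.77 FPKM after UVB, against 2.85, 3.18 and 2.05 FPKM in controls. The groups did not overlap, but its log2 fold change of -0.42 ± 0.13 (SE) had an adjusted p of 0.0532 (limma). It passed in 4 of 15 alternatives, with adjusted p between 0.00105 and 0.137, and it was 0.0126 without the third control library. On recovered reads edgeR and DESeq2 each gave MMP2 a log2 fold change of -0.68 and called it lower, with adjusted p of 0.0272 and 0.00105 in that order. The other 13 lay under the filter, 3 of them at 0 in all libraries. Of 4 other metalloproteinase inhibitors 1 was tested and 0 were called by limma, with 0 at an unadjusted p under 0.05 and 0 by edgeR or DESeq2. That gene was RECK, a membrane-bound inhibitor, with 0.814 ± 0.123 FPKM after UVB and 0.839 ± 0.134 FPKM in controls (SD, n = 3 each) and a limma adjusted p of 0.900. TIMP4 and A2M were at 0.

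Among genes of pro-MMP activation, PLAUR rose and PLAT and PLAU of the plasminogen system fell, while no proprotein convertase passed. Of 9 tested, 1 was higher and 2 were lower, with a median log2 fold change of -0.07, and the 3 calls in 9 are near the 27.9% called among all tested genes. The urokinase receptor PLAUR rose to 6.29 ± 0.291 FPKM after UVB, against 2.85 ± 0.332 FPKM in controls (SD, n = 3 each; log2 fold change 0.92). Both plasminogen activators fell. PLAT (tissue-type) was at 18.7 ± 0.667 FPKM after UVB and 32.5 ± 0.328 FPKM in controls, a log2 fold change of -0.77. PLAU (urokinase) was at 48.5 ± 0.706 FPKM after UVB and 62.3 ± 1.56 FPKM in controls, a log2 fold change of -0.36, with 31.1% of its exon bases shared with C10orf55. The limma adjusted p was 0.000707 for PLAUR, 0.000162 for PLAT and 0.00139 for PLAU. PLG, the gene of plasminogen, which is made mainly by the liver, was at 0.

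Most of the related ADAM genes reached the filter, but few of the ADAMTS genes did. Of 9 ADAM genes 6 were tested, of which 1 was higher and 2 were lower, beside 17.0% and 11.0% of all tested genes, with a median log2 fold change of -0.18. The sheddase ADAM10 was at 12.2 ± 0.307 FPKM after UVB and 17.1 ± 1.25 FPKM in controls, a log2 fold change of -0.45. Its limma adjusted p was 0.00344. ADAM19 was at 0.593 ± 0.126 FPKM after UVB and 1.40 ± 0.118 FPKM in controls, a log2 fold change of -0.59 (limma adjusted p = 0.00568), which edgeR put at -1.29. ADAM8 was at 12.6 ± 0.179 FPKM after UVB and 10.3 ± 0.927 FPKM in controls, a log2 fold change of 0.27 (limma adjusted p = 0.0288). The ADAM8 call was lost in 8 of 15 alternatives, among them leaving out any 1 library but the second of the controls, with adjusted p between 0.0140 and 0.0850. Of 19 ADAMTS genes 2 were tested and 0 were called by limma, with 1 at an unadjusted p under 0.05. This was ADAMTS16, at 1.42 ± 0.153 FPKM after UVB and 1.03 ± 0.0328 FPKM in controls (limma adjusted p = 0.0524), which edgeR and DESeq2 each called. ADAMTS1, a protease of proteoglycans, was at 1.31 ± 0.128 FPKM after UVB and 1.28 ± 0.0732 FPKM in controls.

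Of 16 tested genes of matrix proteins that MMPs can cut, 10 were lower and 3 were higher, with a median log2 fold change of -0.27. Over all tested genes 11.0% were lower and 17.0% higher, with a median of 0.04. The list was chosen with earlier results of these data known, so the contrast with all genes is no test. Tenascin C (TNC) was at 0.352 ± 0.0286 FPKM after UVB and 2.31 ± 0.142 FPKM in controls, a log2 fold change of -1.29 (limma adjusted p = 0.000171), which edgeR put at -2.77. The basement membrane collagen chain COL4A5 was at 1.14 ± 0.0985 FPKM after UVB and 4.12 ± 0.366 FPKM in controls, a log2 fold change of -1.26, which edgeR put at -1.91. COL4A1, of the same collagen type, fell with -0.76 and the proteoglycan perlecan (HSPG2) with -0.75, and limma adjusted p of these 3 genes lay between 0.000248 and 0.00223. The 3 higher genes, COL1A1, COL17A1 and LAMB3, were named after their values were seen and had log2 fold changes of 0.63, 0.45 and 0.42 in that order. COL17A1 and LAMB3, of the hemidesmosome and of laminin-332, anchor keratinocytes to the basement membrane.

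Of 16 tested genes of transcription factors with known sites in MMP promoters, 7 were higher and 1, ETS1, was lower, with a median log2 fold change of 0.21. Over all tested genes 17.0% were higher and 11.0% lower. This list too was chosen with earlier results known, so the contrast is no test. Without any 1 of the UVB libraries the calls numbered 5, not 8, and the call of ETS1, named after its values were seen, was lost without any 1 library, with adjusted p between 0.000552 and 0.101 over its 15 alternatives. JUN, a subunit of AP-1, had the highest log2 fold change, 1.74, at 16.4 ± 0.918 FPKM after UVB and 4.21 ± 0.129 FPKM in controls. The AP-1 subunits FOSL1 and JUND rose with 0.63 and 0.47, and the ETS factor ETV5 with 0.79. Limma adjusted p of these 4 genes was 0.00111 or less.

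**Figure D5:**
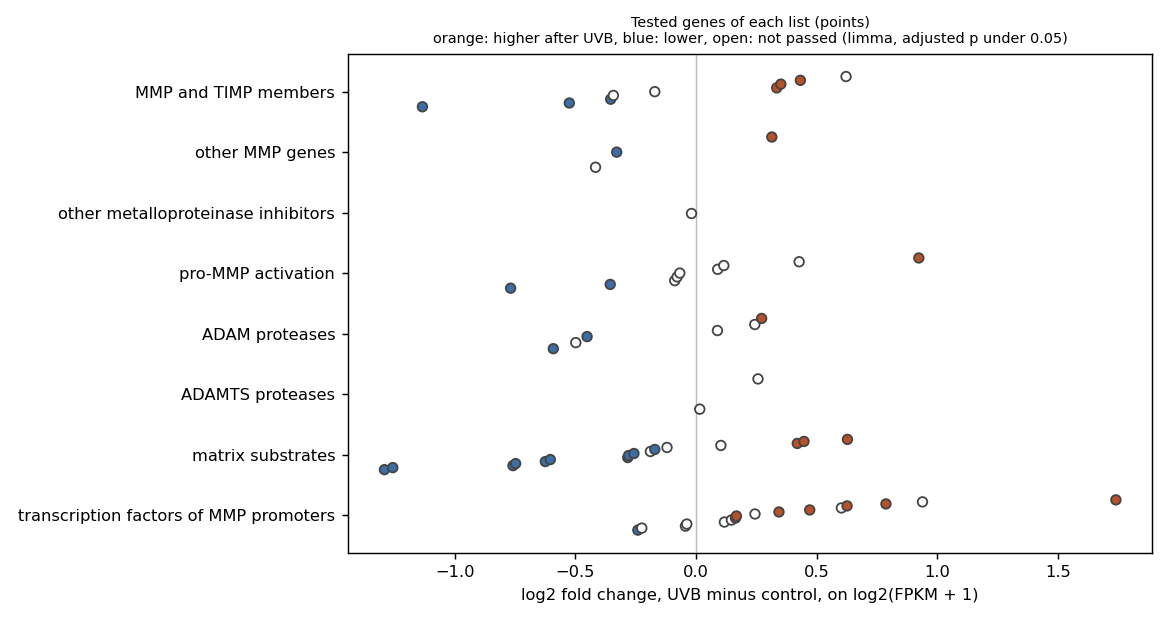
Log2 fold change, UVB minus control, on log2(FPKM + 1) (x axis) of each tested gene (points) in the member list and 7 related lists (rows); orange points are higher and blue points lower after UVB by limma, and open points did not pass. Points of matrix substrates lie mostly left of 0 and those of transcription factors mostly right of 0.

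Genes whose levels followed a member over the 6 libraries were sought among 10856 protein-coding genes whose mean reached 1 FPKM. Correlations are on log2(FPKM + 1) and are given as a description. For TIMP1, the called member with the highest fold change, these were PLOD3, ZNF236 and ZER1, with Pearson r from 0.997 to 0.998. For MMP28 they were TROAP, NME7 and PARD3, each with r of 0.999. The 6 points of each correlation fall into the 2 groups, so genes with a steady difference between groups score high. For TIMP2, added after its values were seen, they were BRICD5, SMAGP and ZNF789, with r of 0.992, 0.971 and 0.969. These followed the same libraries with smaller spans, as the highest value of BRICD5 was 1.38 times the lowest and that of SMAGP 1.69 times. They were picked as the highest of 10856 genes over only 6 libraries, so an r this high can come from the choice alone. Whether they share anything with TIMP2 was not tested.

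The libraries held between 66272443 and 88484020 assigned reads, if each recovered unit stands for 1 read. Pearson r on log2(FPKM + 1) was 0.981 to 0.985 within groups and 0.965 to 0.968 between them. All 9 keratinocyte markers were detected above the filter, and their summed level was 494 to 578 FPKM after UVB and 741 to 919 FPKM in controls, with KRT14 at only 1.73 FPKM after UVB and 1.02 FPKM in controls. Of 9 fibroblast markers 1, COL1A1, was tested, and the sum was 1.83 to 1.99 FPKM after UVB and 0.979 to 1.39 FPKM in controls. Of 10 leukocyte markers 2 were tested, CD68 was higher, and LYZ, AIF1, MPO and ELANE were at 0, with a sum of 18.8 to 26.4 FPKM after UVB and 10.7 to 12.2 FPKM in controls. The sum of 4 endothelial markers was 5.91 to 8.96 FPKM after UVB and 4.26 to 5.21 FPKM in controls, with KDR at 0. The sum of 6 melanocyte markers was 7.56 to 8.06 FPKM after UVB and 4.40 to 4.79 FPKM in controls, with TYR at 0. These sums moved with the groups, but 1 or 2 genes made up most of each sum and other markers did not all follow. In the keratinocyte list KRT5, SFN, ITGA6 and ITGB4 were lower and KRT14 and COL17A1 higher. COL1A1 made up most of the fibroblast sum, while FBN1 was at 0.0252 FPKM after UVB and 0.245 FPKM in controls, under the filter. CD68, with 85.8% of its exon bases shared with other genes, was at 18.2 FPKM after UVB and 5.16 FPKM in controls, whereas CD14 was at 4.93 FPKM after UVB and 6.36 FPKM in controls, with every UVB library below every control library, and did not pass. The endothelial sum was nearly all CDH5, which did not pass, and the melanocyte sum mostly MITF, which was higher. The part of these markers in the results on MMPs and TIMPs was not tested.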

How the data were processed

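RNA of 6 HaCat libraries, 3 UVB and 3 control by their titles, was sequenced. Per the submitters' processing notes, the tools were HISAT2 2.0.5, StringTie and DESeq, on build hg38/GRCh38. How reads were counted, with which strand setting and annotation release, is not given in the sources used here, so reads of overlapping genes cannot be told apart. The authors deposited FPKM for 58735 genes and 771683 repeat copies, scaled by reads on both. Counts of 74 repeat copies, also deposited, fixed the reads assigned per library. With these, 100% of the FPKM values above 0 turned into whole numbers (tolerance 0.01). These units were taken as reads, which is not known. The deposited table further holds the authors' mean normalised signal, log2 fold changes with standard errors, test scores and p-values, per the file headers. Gene IDs matched GENCODE 29, which gave coordinates.

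Genes averaging 0.5 FPKM or more were tested on log2(FPKM + 1), a pseudocount of 1, by limma 3.58.1 in R 4.3.3 (eBayes, mean trend), with all 6 libraries and no covariate. Adjustment was Benjamini-Hochberg over all 14921 tested genes. edgeR 4.0.16 (quasi-likelihood, TMM) and DESeq2 1.42.0 on recovered reads, other pseudocounts, filters and scalings, the replicate number as a block and the omission of each library were alternatives. On simulated data with 200 changed genes of 14921, limma recovered 65.3% of 2-fold and 90.7% of 4-fold changes. Unchanged genes made up 6.71% of the calls by limma, 2.30% by edgeR and 16.2% by DESeq2. The real data gave 4167 limma calls, far more than the 200 genes changed here, and simulated spread followed only a trend over level. These shares thus do not carry over to the calls reported. Changes smaller than 2-fold were not simulated. The rule for named genes took all members, other MMP genes above the filter, up to 4 called genes per list with the largest absolute fold change (2 at most, by level, for a list without calls), and the 3 genes most like the called members with the highest and lowest fold change. Members and lists were chosen with earlier results of these data known.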

Additional observations from a re-analysis of the deposited data

How the results depend on the processing

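Of the 6 called members, MMP13, MMP14, MMP28, TIMP1 and TIMP3 kept their direction and an adjusted p under 0.05 in all 15 alternatives, and MMP15 in 8 of them, so 5 or 6 members were called. COL1A1, COL17A1 and LAMB3 also kept their calls. Over all genes, 4167 were called, and 2809 to 3400 when 1 library was left out. Of called genes 60.7% were higher, against 1979 of 3958 with edgeR, 50.4% with DESeq2, 51.7% with quantile normalization and 51.05% with median centring. Whether replicate numbers pair the samples is not known. Deviations of same-numbered libraries correlated at only 0.048, 0.022 and 0.030, but each library correlated best with its own number. These values do not settle whether the samples are paired. With the number as a replicate block, 3029 genes and 5 members were called. MMP1 and MMP10 were lower in each UVB library than in the control library of the same number. Under the block their limma adjusted p was 0.189 and 0.0744 in that order. Calls among other MMP genes, 2 in all, became 1 with no filter, a filter at 1 FPKM or the replicate block, and 1 to 2 when 1 library was left out, but 3 with edgeR or DESeq2, which also called MMP2. Calls among transcription factors, 8 in all, became 5 with no filter or the replicate block, and 5 to 7 when 1 library was left out. ADAMTS calls became 1 with quantile normalization, edgeR or DESeq2. The log2 difference in the MMP over TIMP ratio was -0.31 without division by gene length, and -0.45 without TIMP2, an alternative added after the data were seen. RECK changed sign to 0.0082 with quantile normalization and ran from -0.072 to 0.039 when 1 library was left out. ADAMTS1 changed sign to -0.0233 with median centring, -0.0237 with edgeR and -0.0253 with DESeq2, and ran from -0.027 to 0.051 when 1 library was left out. MMP10 could not be tested with a filter at 1 FPKM or without the third control library. Causes were not tested. How the power to call a difference varies with the level was not measured.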

Other observations

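Among the MMP genes under the filter, values of 3 are given that were chosen after they were seen. MMP11 (stromelysin-3) had 0.364 ± 0.0579 FPKM after UVB and 0.185 ± 0.0459 FPKM in controls, without overlap. MMP16 (MT3-MMP) had 0.0125 ± 0.00794 FPKM after UVB and 0.0653 ± 0.0241 FPKM in controls, also without overlap. MMP17 (MT4-MMP) had 0.522 ± 0.109 FPKM after UVB and 0.298 ± 0.114 FPKM in controls (SD, n = 3 each), and its groups overlapped. Apart from the alternative with no filter, none of these genes was tested, since their mean over the 6 libraries was under 0.5 FPKM.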
